A study of Mus musculus with 6 samples.

Results

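Macrophages are phagocytes that settle in every organ before birth, and further myeloid cells enter from the blood when tissue is damaged. The genes described here are 37 genes used as markers of these cells: lineage genes, resident and scavenger markers, the C1q chains, phagocytic and pattern recognition receptors, pan-leukocyte genes with integrins, and genes of recruited or activated macrophages. They were taken as a named list of markers, without a rule on their measured values but with earlier results of these data known, and older names on the array, such as Emr1 for Adgre1, were counted. All 37 had a probe, 47 of the 55681 probes in all, and 31 of the 37 were bright enough to be tested among 14026 genes.

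Pancreata were taken whole from newborn C57BL/6N mice (postnatal day 0.5) and frozen, and total RNA of each was hybridised to 1 single-colour Agilent array. Spink3 encodes a trypsin inhibitor of the acinar cell, the exocrine cell that makes digestive enzymes. Spink3-/- mice lack it on both alleles (2 arrays), and by the study's design text every acinar cell in them undergoes a nonapoptotic death with autophagy. Spink3-/-XKI/+ mice lack both alleles and carry 1 copy of an allele named XKI, which the labels do not spell out (2 arrays), and by the same text a large part of their acinar cells is normal. Spink3+/+ mice are the wild-type controls (2 arrays). Whether the 2 samples of each genotype stem from different animals is not given in the labels, so every p-value here reflects variation among these 6 arrays alone, and that variation may be technical.

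Growth of most tissue macrophages depends on the receptor encoded by Csf1r, and their identity on PU.1, the transcription factor encoded by Spi1. Resident macrophages clear dead cells and lipoproteins with scavenger receptors and tag debris with C1q, whereas cells that take up large amounts of dying material raise lipid-sensing and lysosomal genes such as Trem2, Cd68, Lgals3 and Gpnmb. In the pancreas, macrophages lie both around the acini and within the islets.

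PU.1 binds a purine-rich core, GAGGAA, which is TTCCTC on the other strand. Among the 28 listed genes found in RefSeq's promoter table (build GRCm38.p6), 15 held this core on either strand within the 250 bases before the transcription start. That is 53.6%, against 25.9% of the 27025 genes of the table (6986 genes). The 4 promoters below are those of the genes that hold the core and had the smallest unadjusted p between Spink3-/-XKI/+ and Spink3+/+ pancreas. They are shown so that the place of the core can be seen beside the values that follow, with the core in capitals and the start following the last base. They lie at chr17:48346151-48346400 (plus strand, Trem2), chr1:120505025-120505274 (minus strand, Marco), chr17:35176053-35176302 (minus strand, Aif1) and chr11:69666171-69666420 (minus strand, Cd68).
Trem2: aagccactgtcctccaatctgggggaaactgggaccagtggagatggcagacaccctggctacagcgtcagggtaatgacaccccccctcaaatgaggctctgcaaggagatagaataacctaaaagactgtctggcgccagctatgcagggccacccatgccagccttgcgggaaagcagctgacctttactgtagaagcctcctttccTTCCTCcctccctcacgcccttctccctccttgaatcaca
Marco: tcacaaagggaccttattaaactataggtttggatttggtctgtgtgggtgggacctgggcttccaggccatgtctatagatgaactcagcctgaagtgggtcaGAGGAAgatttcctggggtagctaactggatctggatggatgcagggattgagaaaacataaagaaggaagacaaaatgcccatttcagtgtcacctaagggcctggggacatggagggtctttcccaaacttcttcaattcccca
Aif1: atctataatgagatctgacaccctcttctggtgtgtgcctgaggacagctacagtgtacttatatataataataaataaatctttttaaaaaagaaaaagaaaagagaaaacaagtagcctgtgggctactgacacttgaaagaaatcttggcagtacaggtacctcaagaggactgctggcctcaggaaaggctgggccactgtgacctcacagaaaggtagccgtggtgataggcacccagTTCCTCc
Cd68: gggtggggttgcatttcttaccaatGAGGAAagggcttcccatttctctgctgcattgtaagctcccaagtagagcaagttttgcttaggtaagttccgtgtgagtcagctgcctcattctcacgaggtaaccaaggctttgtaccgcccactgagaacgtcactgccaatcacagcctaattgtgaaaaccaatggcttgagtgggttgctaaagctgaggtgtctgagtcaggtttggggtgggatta
The core began 40 bases before the start in Trem2, 146 in Marco, 7 in Aif1 and 225 in Cd68, and in Trem2 and Aif1 it lay on the opposite strand. A match of 6 letters is a description of the sequence and says nothing of whether the factor binds there.

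Each array had 42.4% to 50.8% of its non-control spots well above background and no saturated spot. A level in the following is the log2 of the processed signal minus the array's 75th percentile, so 0 is that percentile, and levels are compared between arrays for 1 gene and never between genes. Spink3 itself stood at 3.25 and 2.95 in Spink3-/-, 2.64 and 2.34 in Spink3-/-XKI/+, and 9.84 and 10.26 in Spink3+/+ pancreas, so it was low on all 4 arrays labelled as mutants. Its log2 difference from Spink3+/+ was -6.95 ± 0.23 in Spink3-/- (SE, limma adjusted p = 0.00101) and -7.56 ± 0.23 in Spink3-/-XKI/+ (adjusted p = 0.000601). The labels do not say which part of the gene is deleted, so the signal left in the mutants cannot be assigned.

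Of the 37 genes, Spi1, Timd4, Cd53, Ccr2, Gpnmb and Cybb were not well above background on both arrays of any genotype and were not tested. The 31 tested genes include 25 that were above background on all 6 arrays. The others passed through some genotypes only: Cd163 through Spink3+/+ pancreas, Msr1 and Ptprc through both mutants, Cd5l through Spink3-/-XKI/+ and Spink3+/+, and Clec7a and Fcgr3 through Spink3-/-XKI/+. By the probes that stand for the genes, Csf1r, Adgre1, Cd68, Aif1, Mpeg1 and the C1q chains were above background on every array. They are the defining macrophage genes of the list. Second probes of Adgre1 and Mpeg1 were above background on only 1 Spink3+/+ array. Second probes of Cd68 and Cx3cr1 were above it on 1 Spink3-/-XKI/+ array only and were not kept. Since whole organs were measured, a higher number of macrophages and more RNA per macrophage cannot be told apart.

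No gene of the list passed the adjusted threshold of 0.05 in any comparison, and very few genes of the whole array did. Between Spink3-/- and Spink3+/+ pancreas 0 of the 31 genes were called by limma, against 5 of 14026 genes (0.0356%). Between Spink3-/-XKI/+ and Spink3+/+, and between Spink3-/- and Spink3-/-XKI/+, 0 of 31 were called in each, against 1 of 14026 genes (0.00713%) in each. The smallest adjusted p of a listed gene was 0.741 and 0.272 (both Lgals3) and 0.619 (Lyve1), in the same order of comparisons. With 2 arrays against 2, an exact permutation test of a single gene could not go below p = 0.333, so the fit across all genes carries the tests.

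Below that threshold, most of the genes had higher levels in both mutants than in Spink3+/+ pancreas. The median log2 difference of the 31 genes was 0.34 in Spink3-/- and 0.64 in Spink3-/-XKI/+, each minus Spink3+/+, against medians of -0.01 and 0.04 over all tested genes. The fitted difference was above 0 for 25 of 31 genes in Spink3-/- and for 27 of 31 in Spink3-/-XKI/+, where 48.95% and 56.3% of all genes were above 0. Both comparisons use the same Spink3+/+ arrays.

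Both Spink3-/- arrays lay above both Spink3+/+ arrays for 19 of 31 genes, against 16.1% of all genes, and below both for 1 gene (Cd163), against 16.6%. Both Spink3-/-XKI/+ arrays lay above both Spink3+/+ arrays for 24 of 31, against 26% of all genes, and below both for 1, again Cd163, against 16.2%. Over the 25 genes above background on all 6 arrays, the first count was 17 of 25 (15.5% of 12259 such genes) and the second 21 of 25 (24.5%), with medians of 0.34 and 0.66. An unadjusted p under 0.05 was reached by 8 higher genes and 1 lower gene in Spink3-/- (2.71% and 2.32% of all genes) and by 18 higher genes and 0 lower in Spink3-/-XKI/+ (5.05% and 2.55%). These counts include Cd163, Msr1 and Clec7a, which passed the filter only through the genotypes where they are high. Over the 25 genes above background on all 6 arrays the counts were 7 higher and 0 lower in Spink3-/- (1.74% and 1.66% of such genes) and 16 higher and 0 lower in Spink3-/-XKI/+ (3.65% and 2.33%).

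The 2 mutants were also compared with each other. The median of Spink3-/- minus Spink3-/-XKI/+ was -0.33 over the 31 genes, against -0.04 over all genes, and 25 of 31 differences were below 0. Both Spink3-/- arrays lay below both Spink3-/-XKI/+ arrays for 16 of 31 genes (21.5% of all genes) and above them for 1, Cd14 (13.1%). An unadjusted p under 0.05 was reached by 4 lower genes, Cx3cr1, Trem2, Tyrobp and Lyve1, and 0 higher genes (4.81% and 2.45% of all genes). Over the 25 genes above background on all 6 arrays, both Spink3-/- arrays lay below both Spink3-/-XKI/+ arrays for 14 (20.2% of such genes), and the median was -0.32. All 4 genes with an unadjusted p under 0.05 are among these 25 (3.81% of such genes lower and 2.24% higher).

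Some of these medians rest on single arrays. Without replicate 1 of Spink3+/+ the median of Spink3-/- minus Spink3+/+ was 0.20, and without replicate 2 of Spink3-/- it was 0.51, while the normexp background correction gave 0.21. Without replicate 1 of Spink3-/-XKI/+ the median of Spink3-/- minus Spink3-/-XKI/+ was -0.18. The 6 arrays shared 1 slide in 2 rows, with both Spink3+/+ arrays and Spink3-/- replicate 1 in row 1 and the others in row 2. Within row 1 the median of Spink3-/- minus Spink3+/+ was 0.51, and within row 2 that of Spink3-/- minus Spink3-/-XKI/+ was -0.37. No row held both Spink3-/-XKI/+ and Spink3+/+ arrays, and with the row as a block, estimated from the Spink3-/- pair alone, their median difference was 0.93 in place of 0.64.

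**Figure D1:**
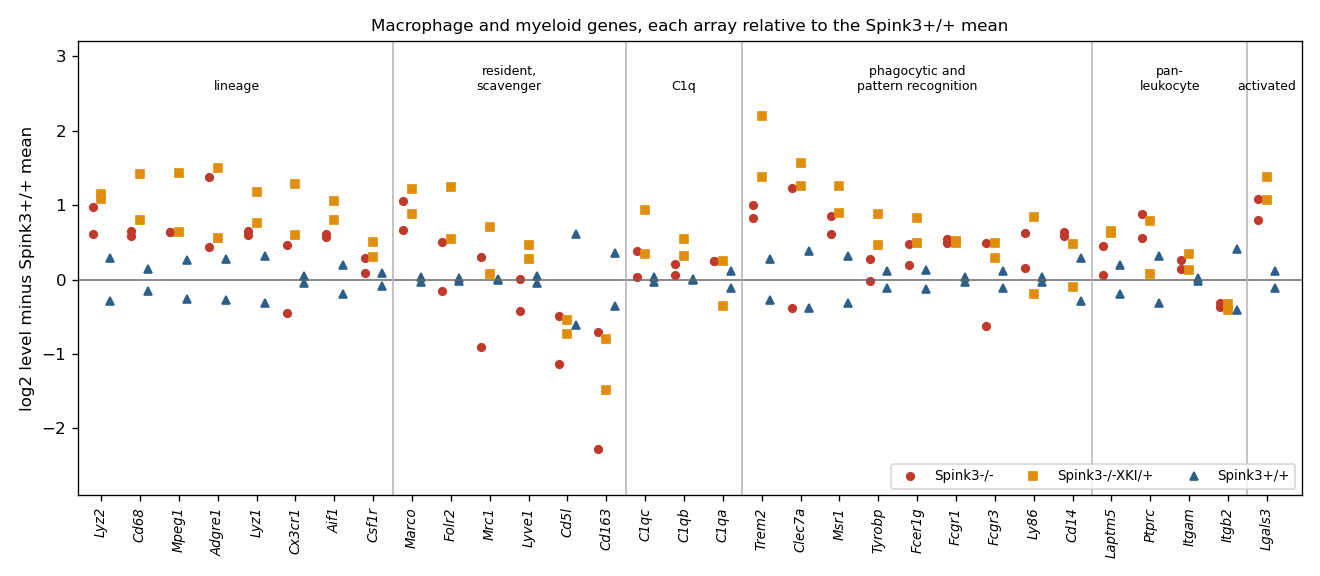
Level of each of the 31 tested genes on each array, as the log2 level minus the mean of the 2 Spink3+/+ arrays, by role group. Points are single arrays, red circles Spink3-/-, orange squares Spink3-/-XKI/+ and blue triangles Spink3+/+, and both squares lie above both triangles for 24 genes.

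Of the lineage genes 8 of 9 were tested, and all 8 had fitted differences above 0 in both mutants, with medians of 0.62 in Spink3-/- and 1.00 in Spink3-/-XKI/+. Lyz2, the lysozyme of macrophages and granulocytes, had levels of -0.60 and -0.96 in Spink3-/-, -0.43 and -0.49 in Spink3-/-XKI/+, and -1.87 and -1.28 in Spink3+/+ pancreas. All 4 mutant arrays lay above both Spink3+/+ arrays. The log2 difference from Spink3+/+ was 0.79 ± 0.25 in Spink3-/- (SE, adjusted p = 0.931) and 1.12 ± 0.25 in Spink3-/-XKI/+ (adjusted p = 0.413). The nearly identical Lyz1, better known from Paneth cells of the gut, gave differences of 0.62 and 0.96, and cross-hybridisation between the pair was not tested.

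Aif1 encodes Iba1, a calcium-binding actin regulator widely used to stain macrophages. Its levels were 2.41 and 2.38 in Spink3-/-, 2.87 and 2.60 in Spink3-/-XKI/+, and 1.61 and 2.00 in Spink3+/+ pancreas. The arrays fell in 3 groups that did not overlap, with Spink3-/-XKI/+ highest and Spink3+/+ lowest. The differences from Spink3+/+ were 0.59 ± 0.21 in Spink3-/- (adjusted p = 0.970) and 0.93 ± 0.21 in Spink3-/-XKI/+ (adjusted p = 0.407), and Spink3-/- minus Spink3-/-XKI/+ was -0.34 ± 0.21 (adjusted p = 0.773).

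The same order was seen for Cd68, a glycoprotein of late endosomes and lysosomes. It stood at 1.97 and 1.90 in Spink3-/-, 2.73 and 2.12 in Spink3-/-XKI/+, and 1.17 and 1.46 in Spink3+/+ pancreas. The differences from Spink3+/+ were 0.62 ± 0.25 in Spink3-/- (adjusted p = 0.987) and 1.11 ± 0.25 in Spink3-/-XKI/+ (adjusted p = 0.413). Replicate 1 of Spink3-/-XKI/+ was the highest array, and Spink3-/- minus Spink3-/-XKI/+ was -0.49 ± 0.25 (adjusted p = 0.732).

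Cx3cr1, the fractalkine receptor of monocytes and many resident macrophages, behaved otherwise in Spink3-/- pancreas. Its levels were 0.44 and -0.48 in Spink3-/-, 1.25 and 0.57 in Spink3-/-XKI/+, and -0.08 and 0.02 in Spink3+/+. The 2 Spink3-/- arrays lay on either side of the Spink3+/+ arrays, and both Spink3-/-XKI/+ arrays lay above all others. The difference from Spink3+/+ was 0.01 ± 0.36 in Spink3-/- (adjusted p = 0.999), whose 95% interval ran from -0.88 to 0.89, and 0.94 ± 0.36 in Spink3-/-XKI/+ (adjusted p = 0.635). Spink3-/- minus Spink3-/-XKI/+ was -0.93 ± 0.36 (adjusted p = 0.646).

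The remaining lineage genes differed less evenly. Adgre1, which encodes the F4/80 antigen, gave 0.91 in Spink3-/- and 1.03 in Spink3-/-XKI/+, and Mpeg1, the pore-forming perforin-2, gave 0.64 and 1.03, each minus Spink3+/+. A second Mpeg1 probe gave 0.88 and 2.07 (adjusted p = 0.205 over all probes), and a second Adgre1 probe 0.61 and 0.71. Csf1r, the receptor for CSF1 and IL-34, differed least, by 0.18 and 0.41, and its other 2 probes gave 0.05 and 0.16 in Spink3-/- and 0.37 and 0.17 in Spink3-/-XKI/+. The probe of Spi1, the gene of PU.1, was below background on every array.

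The resident and scavenger markers were mixed, and they include Cd163 and Cd5l, which had lower fitted levels in both mutants. Of 7 genes 6 were tested, with a median difference from Spink3+/+ of -0.25 in Spink3-/- and 0.38 in Spink3-/-XKI/+. Marco, a collagen-like scavenger receptor for bacteria and particles, had levels of 1.84 and 2.22 in Spink3-/-, 2.05 and 2.39 in Spink3-/-XKI/+, and 1.15 and 1.21 in Spink3+/+ pancreas. The mutants overlapped each other and both lay above Spink3+/+. The differences from Spink3+/+ were 0.86 ± 0.21 in Spink3-/- (adjusted p = 0.783) and 1.04 ± 0.21 in Spink3-/-XKI/+ (adjusted p = 0.378).

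Cd163, the receptor that clears haemoglobin bound to haptoglobin, had the opposite order. Its levels were -2.74 and -4.31 in Spink3-/-, -3.51 and -2.84 in Spink3-/-XKI/+, and -1.69 and -2.38 in Spink3+/+ pancreas, and only the Spink3+/+ arrays were well above background. On the bound that this allows it was at least 1.32-fold lower in Spink3-/- (adjusted p = 0.987) and at least 2.04-fold lower in Spink3-/-XKI/+ (adjusted p = 0.709). With the slide row as a block its difference in Spink3-/-XKI/+ was 0.43, with the sign turned.

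Cd5l, a secreted protein that supports macrophage survival, was above background on both arrays of Spink3-/-XKI/+ and Spink3+/+ and on neither Spink3-/- array. It stood at -2.62 and -1.98 in Spink3-/-, -2.21 and -2.04 in Spink3-/-XKI/+, and -0.88 and -2.10 in Spink3+/+ pancreas. Replicate 1 of Spink3+/+ was high and replicate 2 lay among the mutants. The log2 difference from Spink3+/+ was -0.81 ± 0.43 in Spink3-/- (adjusted p = 0.987) and -0.64 ± 0.43 in Spink3-/-XKI/+ (adjusted p = 0.773). With single arrays left out, the first ran from -1.42 to -0.20 and the second from -1.25 to -0.03.

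Folr2, Lyve1 and Mrc1 mark perivascular and other resident macrophages, and Lyve1 is also made by lymphatic endothelium. All 3 had lower fitted levels in Spink3-/- than in Spink3-/-XKI/+ pancreas. Lyve1, a hyaluronan receptor, had levels of 0.66 and 0.23 in Spink3-/-, 0.94 and 1.12 in Spink3-/-XKI/+, and 0.61 and 0.70 in Spink3+/+ pancreas, so that the Spink3-/-XKI/+ arrays were the highest. Spink3-/- minus Spink3-/-XKI/+ was -0.58 ± 0.21 (adjusted p = 0.619).

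Folr2, the beta folate receptor, stood at -0.17 and -0.84 in Spink3-/-, 0.56 and -0.14 in Spink3-/-XKI/+, and -0.70 and -0.67 in Spink3+/+ pancreas. Its difference from Spink3+/+ was 0.89 ± 0.32 in Spink3-/-XKI/+ (adjusted p = 0.614), and Spink3-/- minus Spink3-/-XKI/+ was -0.72 ± 0.32 (adjusted p = 0.709). Mrc1, the mannose receptor, had levels of 0.59 and -0.62 in Spink3-/-, 1.00 and 0.36 in Spink3-/-XKI/+, and 0.29 on both Spink3+/+ arrays. The wide gap between the 2 Spink3-/- arrays left Spink3-/- minus Spink3-/-XKI/+ at -0.69 ± 0.42 (adjusted p = 0.773). Timd4, a phosphatidylserine receptor of embryo-derived resident macrophages, was not tested.

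**Figure D2:**
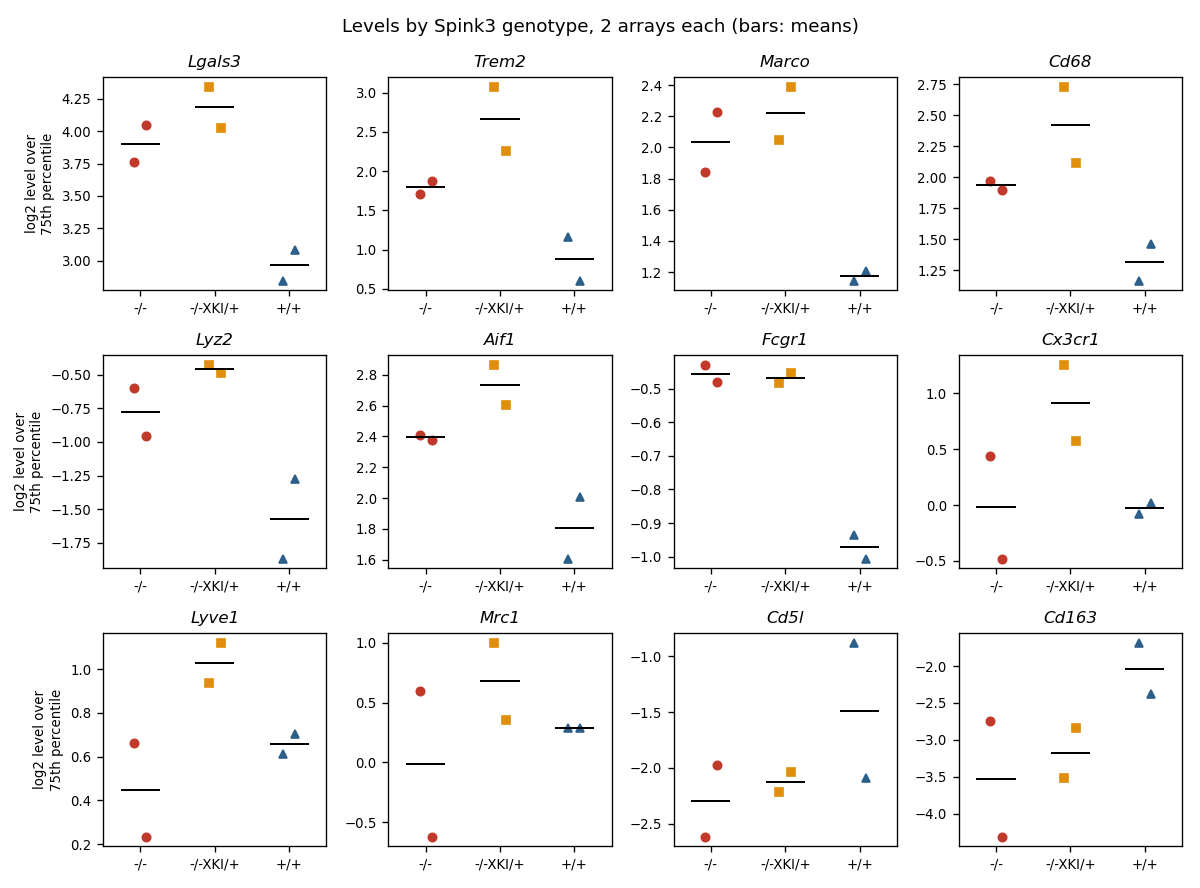
Levels of 12 of the genes on the log2 scale, with 0 at each array's 75th percentile, 1 panel per gene, for Spink3-/-, Spink3-/-XKI/+ and Spink3+/+ pancreas from left to right, with a separate scale in each panel. Points are single arrays and bars the means of 2 arrays, and Lgals3, Trem2, Marco, Cd68, Lyz2, Aif1 and Fcgr1 have all 4 mutant arrays above both Spink3+/+ arrays while Cd163 has them below.

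The 3 chains of C1q, the complement protein that opens the classical pathway and is made mainly by macrophages, showed small differences. C1qb had levels of 1.74 and 1.60 in Spink3-/-, 2.09 and 1.86 in Spink3-/-XKI/+, and 1.54 and 1.53 in Spink3+/+ pancreas, and C1qc had 2.72 and 2.37, 3.27 and 2.67, and 2.30 and 2.37 in the same genotypes. The Spink3-/-XKI/+ arrays were the highest for C1qb, and for C1qc the mutants overlapped. C1qa, at 2.01 on both Spink3-/- arrays, 2.01 and 1.40 in Spink3-/-XKI/+, and 1.64 and 1.88 in Spink3+/+ pancreas, did not share that order.

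For Spink3-/- minus Spink3+/+ the differences were 0.25 ± 0.24 for C1qa, 0.14 ± 0.17 for C1qb and 0.21 ± 0.25 for C1qc, with adjusted p from 0.987 to 0.991. For Spink3-/-XKI/+ minus Spink3+/+ they were -0.06 ± 0.24 for C1qa, 0.43 ± 0.17 for C1qb (adjusted p = 0.654) and 0.64 ± 0.25 for C1qc (adjusted p = 0.652). For Spink3-/- minus Spink3-/-XKI/+ they were 0.31 for C1qa, -0.30 for C1qb and -0.43 for C1qc, with adjusted p from 0.760 to 0.840. The chains assemble in equal parts. All 3 fitted differences were above 0 between Spink3-/- and Spink3+/+ pancreas, and in both comparisons that include Spink3-/-XKI/+ C1qa had the opposite sign to C1qb and C1qc.

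The 9 phagocytic and pattern recognition receptors were all tested, with medians of 0.42 in Spink3-/- and 0.66 in Spink3-/-XKI/+, each minus Spink3+/+. Trem2, a lipid-sensing receptor of macrophages that take up debris, gave the largest difference of the 31 genes in Spink3-/-XKI/+ by the probes that stand for the genes. Its levels were 1.71 and 1.88 in Spink3-/-, 3.07 and 2.25 in Spink3-/-XKI/+, and 1.16 and 0.61 in Spink3+/+ pancreas, with no overlap between any of the 3 genotypes. The differences from Spink3+/+ were 0.91 ± 0.33 in Spink3-/- (adjusted p = 0.970) and 1.78 ± 0.33 in Spink3-/-XKI/+ (adjusted p = 0.313), and Spink3-/- minus Spink3-/-XKI/+ was -0.87 ± 0.33 (adjusted p = 0.639).

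Tyrobp, the adaptor DAP12 through which Trem2 signals, stood at 2.75 and 2.46 in Spink3-/-, 3.35 and 2.95 in Spink3-/-XKI/+, and 2.37 and 2.59 in Spink3+/+ pancreas. Here the Spink3-/- arrays overlapped those of Spink3+/+. The difference from Spink3+/+ was 0.13 ± 0.22 in Spink3-/- (adjusted p = 0.991) and 0.67 ± 0.22 in Spink3-/-XKI/+ (adjusted p = 0.577), and Spink3-/- minus Spink3-/-XKI/+ was -0.54 ± 0.22 (adjusted p = 0.681). The related Fc receptor gamma chain gene Fcer1g gave 0.34 in Spink3-/- and 0.66 in Spink3-/-XKI/+, each minus Spink3+/+.

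Fcgr1, the high-affinity receptor for IgG, was the most even of the receptors. Its levels were -0.43 and -0.48 in Spink3-/-, -0.48 and -0.45 in Spink3-/-XKI/+, and -0.94 and -1.01 in Spink3+/+ pancreas. The mutants could not be separated and both lay above Spink3+/+, by 0.51 ± 0.16 in Spink3-/- (adjusted p = 0.895) and 0.50 ± 0.16 in Spink3-/-XKI/+ (adjusted p = 0.553). Spink3-/- minus Spink3-/-XKI/+ was 0.01 ± 0.16, with a 95% interval from -0.37 to 0.39.

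Msr1, the class A scavenger receptor for modified lipoproteins, was well above background on all 4 mutant arrays and on neither Spink3+/+ array. It had levels of -1.62 and -1.38 in Spink3-/-, -1.35 and -0.98 in Spink3-/-XKI/+, and -1.92 and -2.55 in Spink3+/+ pancreas. The log2 difference from these dim Spink3+/+ values was 0.74 ± 0.27 in Spink3-/- (adjusted p = 0.984). In Spink3-/-XKI/+ it was 1.07 ± 0.27 (adjusted p = 0.470). A second Msr1 probe gave log2 differences of 0.68 and 1.12.

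Clec7a, the beta-glucan receptor Dectin-1, stood at -0.86 and -2.47 in Spink3-/-, -0.83 and -0.52 in Spink3-/-XKI/+, and -2.47 and -1.70 in Spink3+/+ pancreas. Only the Spink3-/-XKI/+ arrays were both above background, and the 2 Spink3-/- arrays lay far apart. Spink3-/- minus Spink3-/-XKI/+ was -0.99 ± 0.54 (adjusted p = 0.744), and Spink3-/-XKI/+ minus Spink3+/+ was 1.41 ± 0.54 (adjusted p = 0.632).

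Cd14, the co-receptor for endotoxin, was the gene whose Spink3-/- arrays lay above both other genotypes, at 0.23 and 0.28 in Spink3-/-, -0.47 and 0.12 in Spink3-/-XKI/+, and -0.65 and -0.07 in Spink3+/+ pancreas. Its difference was 0.62 ± 0.28 against Spink3+/+ (adjusted p = 0.987) and 0.43 ± 0.28 against Spink3-/-XKI/+ (adjusted p = 0.792). Fcgr3, a low-affinity IgG receptor shared with natural killer cells, was well above background on 1 Spink3-/- array and on neither Spink3+/+ array. The fitted difference between these genotypes, -0.07 ± 0.37 (adjusted p = 0.999), is thus one of values near background. In Spink3-/-XKI/+ the difference from the same dim Spink3+/+ values was 0.39 ± 0.37 (adjusted p = 0.837). Ly86, the MD-1 partner of an endotoxin receptor relative, gave 0.39 and 0.32 with adjusted p of 0.987 and 0.864.

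Of the pan-leukocyte genes and integrins 4 of 5 were tested, and their medians were 0.23 in Spink3-/- and 0.33 in Spink3-/-XKI/+. Ptprc, the CD45 phosphatase carried by all white blood cells, had levels of -1.90 and -1.59 in Spink3-/-, -1.68 and -2.39 in Spink3-/-XKI/+, and -2.78 and -2.14 in Spink3+/+ pancreas. The Spink3-/- arrays lay above both Spink3+/+ arrays, and the Spink3-/-XKI/+ arrays overlapped both. The differences from Spink3+/+ were 0.72 ± 0.33 in Spink3-/- (adjusted p = 0.987) and 0.43 ± 0.33 in Spink3-/-XKI/+ (adjusted p = 0.800).

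Laptm5, a lysosomal protein of blood cells, stood at 1.99 and 2.38 in Spink3-/-, 2.58 and 2.55 in Spink3-/-XKI/+, and 1.74 and 2.12 in Spink3+/+ pancreas. The Spink3-/-XKI/+ arrays were the highest, by 0.64 ± 0.22 over Spink3+/+ (adjusted p = 0.603), and a second probe gave 0.39. Spink3-/- minus Spink3+/+ was 0.26 ± 0.22 (adjusted p = 0.987).

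The integrin pair CD11b and CD18, encoded by Itgam and Itgb2, had fitted differences of opposite sign. Itgam had levels of 6.66 and 6.79 in Spink3-/-, 6.64 and 6.87 in Spink3-/-XKI/+, and 6.54 and 6.50 in Spink3+/+ pancreas, with differences from Spink3+/+ of 0.20 ± 0.17 and 0.24 ± 0.17. Its other 2 kept probes were far dimmer, at -2.88 to -2.28 and -0.79 to -0.41 over the 6 arrays, and why was not tested. They gave 0.37 and 0.10 in Spink3-/- and 0.51 and 0.14 in Spink3-/-XKI/+. Itgb2 stood at -0.17 and -0.12 in Spink3-/-, -0.22 and -0.14 in Spink3-/-XKI/+, and 0.60 and -0.21 in Spink3+/+ pancreas, and its negative differences of -0.34 and -0.37 rest on replicate 1 of Spink3+/+. Without that array they were 0.065 and 0.032. Cd53, a tetraspanin of white blood cells, was not tested.

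Of the genes of recruited or activated macrophages, Lgals3 alone was tested. It encodes galectin-3, a lectin that gathers on damaged lysosomes and is made by macrophages and also by epithelia and stromal cells. Its levels were 3.76 and 4.05 in Spink3-/-, 4.34 and 4.03 in Spink3-/-XKI/+, and 2.84 and 3.08 in Spink3+/+ pancreas. The mutants overlapped each other and lay above Spink3+/+ by 0.94 ± 0.21 in Spink3-/- (a fold of 1.92, adjusted p = 0.741) and 1.22 ± 0.21 in Spink3-/-XKI/+ (a fold of 2.33, adjusted p = 0.272). Their 95% intervals ran from 0.43 to 1.45 and from 0.71 to 1.73, unadjusted for the number of genes. Among the probes that stand for the genes it had the smallest p of the list in both comparisons, while the second Mpeg1 probe had a smaller p in Spink3-/-XKI/+ minus Spink3+/+ (0.00036 against 0.0012, unadjusted, from limma fitted to probes).

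**Figure D3:**
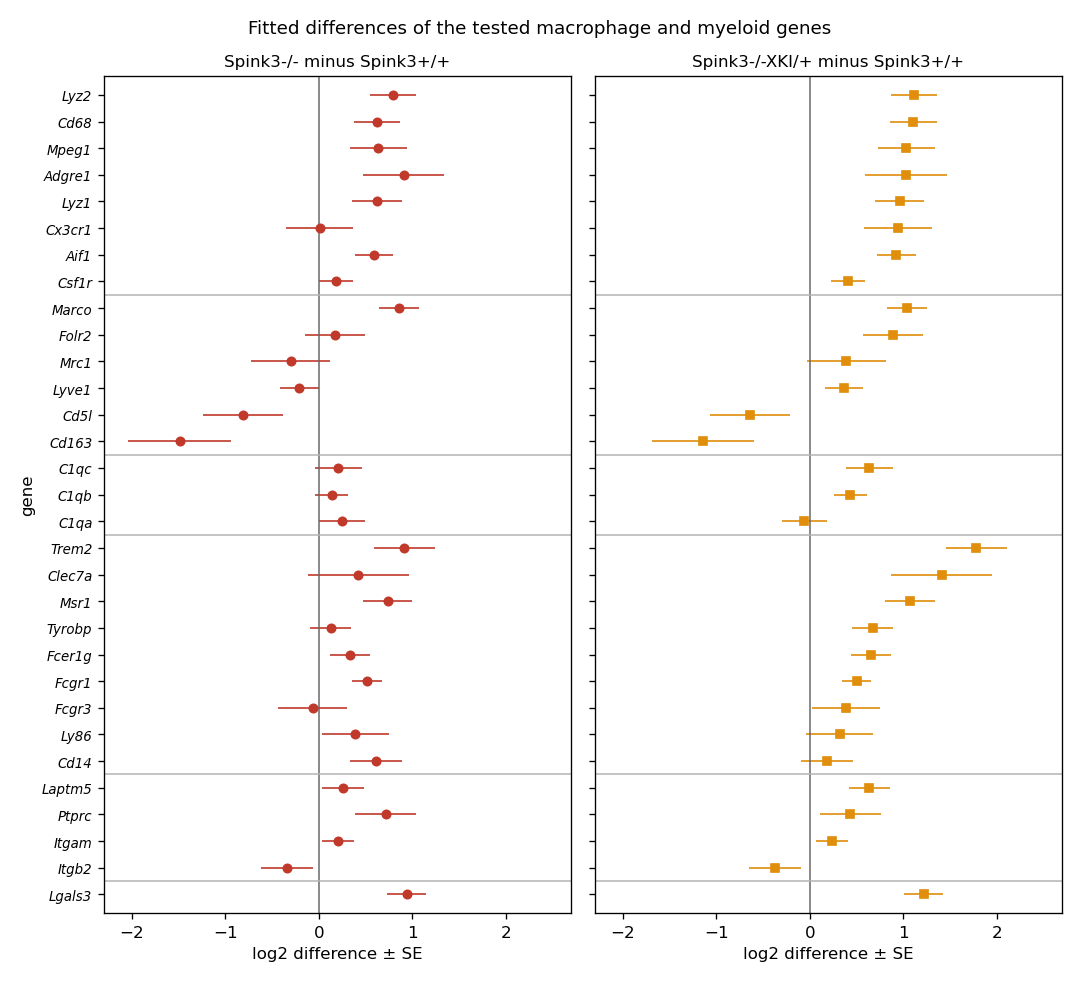
Fitted log2 difference of each of the 31 tested genes, in Spink3-/- minus Spink3+/+ (left) and in Spink3-/-XKI/+ minus Spink3+/+ (right), with bars of 1 SE from limma on 6 arrays, ordered by role group. Both panels use the same 2 Spink3+/+ arrays, and Cd163, Cd5l and Itgb2 lie below 0 in both.

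Further genes of the same biology were read from lists of ligands, other myeloid genes and activation genes, and none of them passed the adjusted threshold (0 called in each of the 3 comparisons for every list). Ligands that feed or attract macrophages were represented by 8 of 9 genes, with medians of 0.14 in Spink3-/- and 0.37 in Spink3-/-XKI/+, each minus Spink3+/+. Ccl7, a chemokine that attracts monocytes, had levels of -0.16 and -1.23 in Spink3-/-, -1.68 and -0.69 in Spink3-/-XKI/+, and -4.04 and -1.93 in Spink3+/+ pancreas. Its differences were 2.29 ± 0.75 (adjusted p = 0.959) and 1.80 ± 0.75 (adjusted p = 0.659), and 1 of the 2 Spink3+/+ arrays was not well above background. Without replicate 1 of Spink3+/+ they were 1.23 and 0.74.

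Ccl2, the main ligand of Ccr2, had levels of 1.07 and -0.93 in Spink3-/-, -0.89 and 0.48 in Spink3-/-XKI/+, and -1.83 and -1.25 in Spink3+/+ pancreas. All 4 mutant arrays lay above both Spink3+/+ arrays, and the arrays of each mutant lay far apart. The differences from Spink3+/+ were 1.61 ± 0.73 in Spink3-/- (adjusted p = 0.987) and 1.33 ± 0.73 in Spink3-/-XKI/+ (adjusted p = 0.737). The first was 0.61 without replicate 1 of Spink3-/- and 2.61 without its replicate 2, and the second was 0.65 without replicate 2 of Spink3-/-XKI/+ and 2.02 without its replicate 1. Il34, a second ligand of the Csf1r protein, stood at -0.12 and 0.38 in Spink3-/-, 1.13 and 0.66 in Spink3-/-XKI/+, and 0.39 and 0.21 in Spink3+/+ pancreas, which put the Spink3-/-XKI/+ arrays above all others. Spink3-/- minus Spink3-/-XKI/+ was -0.76 ± 0.26 for Il34 (adjusted p = 0.592) and -0.54 ± 0.19 for Cx3cl1, the ligand of Cx3cr1 (adjusted p = 0.625).

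Among 43 other myeloid genes 35 were tested, with medians of 0.28 in Spink3-/- and 0.53 in Spink3-/-XKI/+ and 29 and 27 of 35 genes above 0. Lgmn, a lysosomal protease, had levels of 3.80 and 3.76 in Spink3-/-, 4.51 and 4.28 in Spink3-/-XKI/+, and 3.38 and 3.44 in Spink3+/+ pancreas. The 3 genotypes did not overlap, and the difference of Spink3-/-XKI/+ was 0.99 ± 0.17 over Spink3+/+ (adjusted p = 0.272). Stab1, a scavenger receptor of macrophages and sinusoidal endothelium, gave 0.79 ± 0.19 in that comparison (adjusted p = 0.448). For Spink3-/- minus Spink3-/-XKI/+ Lgmn gave -0.61 ± 0.17 (adjusted p = 0.553) and Stab1 -0.62 ± 0.19 (adjusted p = 0.563).

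C3ar1, the receptor for complement fragment C3a, was above background on 1 Spink3-/- array, both Spink3-/-XKI/+ arrays and neither Spink3+/+ array. It passed the filter only through Spink3-/-XKI/+. Its levels were -1.96 and -2.21 in Spink3-/-, -2.78 and -1.65 in Spink3-/-XKI/+, and -3.53 and -4.30 in Spink3+/+ pancreas. The log2 difference of Spink3-/- from Spink3+/+, 1.83 (adjusted p = 0.753), is thus partly one of values near background. Mertk, a receptor for the uptake of apoptotic cells, went the other way, with -2.03 on both Spink3-/- arrays, -1.77 and -1.69 in Spink3-/-XKI/+, and -1.33 and -1.49 in Spink3+/+ pancreas, a difference of -0.62 ± 0.16 in Spink3-/- (adjusted p = 0.866). Of 10 genes of inflammatory or alternative activation only 4 were tested, with medians of 0.01 and 0.08, and Il1b, Tnf, Il6, Il10, Ptgs2 and Retnla were not above background on both arrays of any genotype.

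Markers of other cells that a whole pancreas can hold were read in the same way. Monocyte genes (3 of 6 tested) had medians of 0.11 in Spink3-/- and 0.44 in Spink3-/-XKI/+, led by S100a4, which fibroblasts make as well. S100a4 gave 0.71 ± 0.20 in Spink3-/- (adjusted p = 0.866) and 1.31 ± 0.20 in Spink3-/-XKI/+ (adjusted p = 0.250). Genes of dendritic cells and class II presentation (10 of 14) had medians of 0.50 and 0.64, with 0.97 ± 0.30 for Zbtb46 in Spink3-/- (adjusted p = 0.898) and 0.78 ± 0.25 for H2-DMb1 in Spink3-/-XKI/+ (adjusted p = 0.575). Both mutant arrays lay above both Spink3+/+ arrays for 2 of 10 in Spink3-/- (16.1% of all genes) and 4 of 10 in Spink3-/-XKI/+ (26%). Spink3+/+ replicates 1 and 2 stood at 0.06 and 1.81 for Cd74, 0.67 and 2.24 for H2-Ab1, and 0.74 and 2.35 for H2-Eb1. For these genes replicate 2 lay among or above the mutant arrays, so their differences rest on replicate 1.

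Neutrophil genes had medians of -0.74 and -0.67 over 12 of 14 genes, with 9 of 12 below 0 in Spink3-/- and 8 of 12 below 0 in Spink3-/-XKI/+. Csf3r and Elane were among those above 0 in both, with 0.09 and 0.15 in Spink3-/-, and Cxcr2 was well above background in Spink3-/-XKI/+ pancreas only. S100a8, a subunit of calprotectin, gave -0.73 ± 0.20 in Spink3-/- (adjusted p = 0.866), and Camp, a granule peptide, gave -1.11 ± 0.23 in Spink3-/-XKI/+ (adjusted p = 0.382). Erythroid genes (4 of 6) had medians of -0.79 and -1.25, with -1.50 ± 0.37 for Slc4a1, the band 3 anion exchanger, in Spink3-/-XKI/+ (adjusted p = 0.467). Lymphocyte genes (5 of 10), mast cell genes (5 of 7) and lymphatic genes (3 of 6) had medians between -0.08 and 0.18.

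Liver genes were high in the Spink3-/- samples. All 11 were tested, and their median was 1.73 in Spink3-/- and 0.12 in Spink3-/-XKI/+, each minus Spink3+/+. The Spink3-/- arrays lay above both Spink3+/+ arrays for 11 of 11, against 16.1% of all genes. This count includes Apob and Apoh, which passed the filter only through Spink3-/-, where they are high. The 2 Spink3-/-XKI/+ arrays differed from each other, since the median level of the 11 genes was 3.33 and 2.24 in Spink3-/-, 0.22 and 2.18 in Spink3-/-XKI/+, and 0.32 and 0.64 in Spink3+/+ pancreas. Replicate 2 of Spink3-/-XKI/+ was thus close to replicate 2 of Spink3-/- in this median, which on both arrays was the level of Afp. Other liver genes were not all close on these 2 arrays. In the same order, Apoa2 stood at 3.25 and 3.43, and Apoa1 at -0.85 and 0.26. Afp, the fetal serum protein, stood at 3.33 and 2.24 in Spink3-/-, 0.32 and 2.18 in Spink3-/-XKI/+, and 0.32 and 0.64 in Spink3+/+ pancreas. Without that Spink3-/-XKI/+ array the median of the 31 macrophage genes in Spink3-/-XKI/+ minus Spink3+/+ was 0.84, and without replicate 1 it was 0.49. Serpina1a, a plasma protease inhibitor, gave 2.15 ± 0.34 in Spink3-/- (adjusted p = 0.418). Marco, Timd4 and Cd5l are also made by Kupffer cells, the macrophages of the liver, and of 2 other Kupffer cell genes Clec4f was below background on all 6 arrays and Vsig4 was above it on 1 Spink3-/-XKI/+ array only. Acinar genes (8 of 8) had medians of -0.20 and -0.07, with Pnlip, a lipase, at -1.41 ± 0.32 in Spink3-/- (adjusted p = 0.741) and 1.09 ± 0.32 in Spink3-/-XKI/+ (adjusted p = 0.521).

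Summed over a list, with each gene's signal in units of the array's 75th percentile, the 31 macrophage genes came to 222 to 232 in Spink3-/-, 252 to 268 in Spink3-/-XKI/+, and 181 to 190 in Spink3+/+ pancreas. A sum gives bright probes the most weight, so it serves to set arrays side by side and not genes. The 3 genotypes did not overlap in it, nor in the sum of the 8 lineage genes alone, at 54.9 to 57.4 in Spink3-/-, 61.6 to 76.4 in Spink3-/-XKI/+ and 40.6 to 48.7 in Spink3+/+ pancreas. Liver genes summed to 119 to 126 in Spink3-/-, 71.3 to 88.5 in Spink3-/-XKI/+, and 62.9 to 79.4 in Spink3+/+ pancreas, and erythroid genes to 397 to 417, 267 to 290 and 371 to 819. The liver sum was thus highest on the Spink3-/- arrays and the erythroid sum lowest on the Spink3-/-XKI/+ arrays. The erythroid sum is carried almost wholly by the Hba-a1 probe, so it does not describe the rest of its list. Gene by gene, both Spink3-/-XKI/+ arrays lay below both Spink3+/+ arrays for 4 of 4 erythroid genes (16.2% of all genes). Monocyte genes summed to 20.7 to 22.4 in Spink3-/-, 26.0 to 27.9 in Spink3-/-XKI/+ and 16.8 to 18.5 in Spink3+/+ pancreas, and other myeloid genes to 156 to 165, 189 to 211 and 124 to 144, with the order of the macrophage genes. Of the 3 monocyte genes only S100a4 had that order without overlap, while Plac8 and F13a1 each overlapped between genotypes.

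Neutrophil genes summed to 374.5 to 427 in Spink3-/-, 366 to 439 in Spink3-/-XKI/+ and 414 to 465 in Spink3+/+ pancreas, and acinar genes to 6976.5 to 8983, 7657 to 8096 and 7539 to 8975. Lymphocyte genes summed to 29.8 to 47.8, 36.6 to 41.0 and 32.8 to 34.8, mast cell genes to 10.2 to 12.5, 9.97 to 14.6 and 11.04 to 13.3, and lymphatic genes to 8.90 to 11.4, 8.59 to 10.65 and 8.98 to 9.53. Dendritic and class II genes summed to 506 to 575, 474 to 598 and 527 to 549. The last sum is carried almost wholly by the Siglech probe and that of the neutrophil genes mostly by the Csf3r probe, so neither describes the rest of its list. The share of spots well above background was 48.0% and 42.4% in Spink3-/-, 50.8% and 47.2% in Spink3-/-XKI/+, and 43.4% and 46.4% in Spink3+/+ pancreas, so that Spink3-/-XKI/+ replicate 1 had the most. The part of these other cell types and of that share in the macrophage gene differences was not tested.

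**Figure D4:**
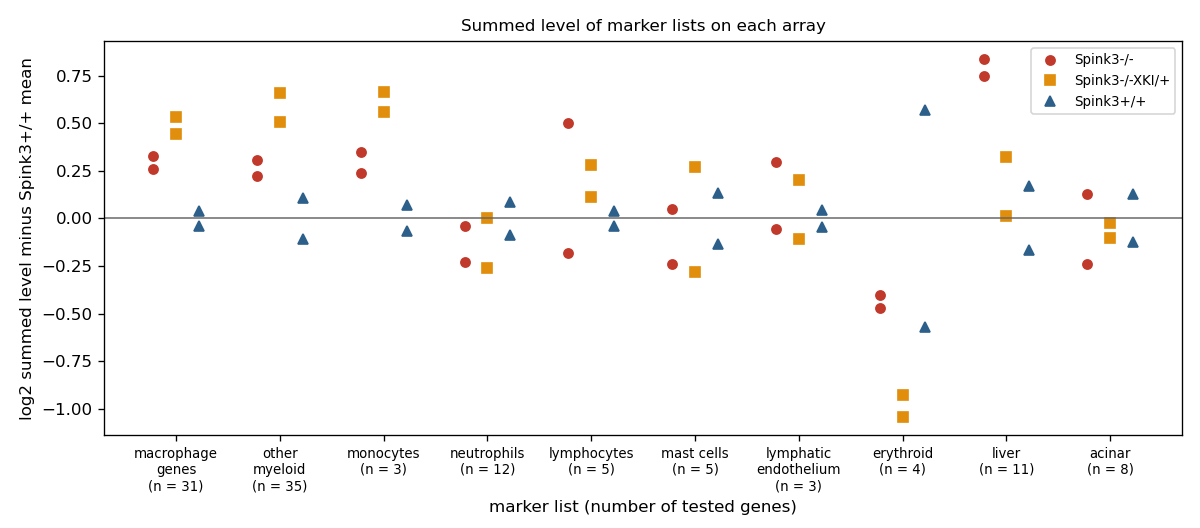
Log2 of the summed level of each marker list on each array, minus the mean of the 2 Spink3+/+ arrays, for Spink3-/- (red circles), Spink3-/-XKI/+ (orange squares) and Spink3+/+ (blue triangles). The macrophage, other myeloid and monocyte lists run in the order Spink3-/-XKI/+, Spink3-/-, Spink3+/+ without overlap, and the macrophage sum is carried mostly by the Itgam and Csf1r probes. Of the 3 monocyte genes only S100a4 has that order without overlap. The liver sum is highest on the Spink3-/- arrays, although the median liver level of Spink3-/-XKI/+ replicate 2 (2.18) is near that of Spink3-/- replicate 2 (2.24), both being the level of Afp.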

How the data were processed

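Total RNA of 6 whole pancreas samples, 2 per genotype, was hybridised to 1-colour arrays. The authors deposited spot intensity as written by Agilent Feature Extraction (version 10.7.3.1, per the submitters' processing notes), background-subtracted and detrended per the file headers, which name build mm9. The series' value table repeated that intensity without difference, so it is linear, not centred and no ratio (column medians 15.2 to 19.9).

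From these, log2 signals were taken, each array's 75th percentile was subtracted, outlier spots were left out and spots of a probe averaged. A probe was kept where at least 1 genotype had it well above background on both of its arrays (24824 probes, 44.6%), and a gene was represented by its brightest unsaturated probe. Names came from RefSeq's table, by accession for 26762 probes, by symbol for 3819 and by older symbol for 639, while 1691 kept the file's name and 22770 had none. The model (limma 3.58.1, eBayes, two-sided, 3 residual degrees of freedom, under R 4.3.3) was fitted to all 6 arrays, with Benjamini-Hochberg adjustment over 14026 genes and a threshold of 0.05. A fold written as "at least" sets the brighter group's mean against, per array, the higher of the dim probe's value and the lowest signal well above background. It takes no account of the spread between arrays. In data simulated for Spink3-/- minus Spink3+/+ over 14026 genes, the fit called 9, 39, 44 and 46 of 50 genes changed by 1, 2, 3 and 4 on the log2 scale, and 5 of 13826 unchanged genes.

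The genes and lists were chosen with earlier results of these data known. Within each role group the 3 tested genes of smallest unadjusted p per comparison are given in full, and of other lists up to 2. Alternatives were the background correction, the scaling, the filter, the choice of probe, the arrays fitted, slide row and replicate number as blocks, and each array left out. Of the listed genes, 3 (Ly6c2, Ccl21a, Hbb-b1) had no probe.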

Additional observations from a re-analysis of the deposited data

Results flagged for a closer look

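5 of the 6 listed genes that were too dim to be tested were well above background on 1 array of a mutant and on neither Spink3+/+ array, and so lie outside the comparisons above. Gpnmb, a glycoprotein of lipid-laden and phagocytosing macrophages, had a level of -1.45 on Spink3-/-XKI/+ replicate 1, against at most -4.50 on the Spink3+/+ arrays. Cybb, the catalytic subunit of the phagocyte oxidase, stood at -2.01 on that array, against at most -4.00 in Spink3+/+ pancreas. Ccr2, the chemokine receptor of recruited monocytes, stood at -2.80 there, against at most -3.83 in Spink3+/+ pancreas. Cd53 was above background on Spink3-/-XKI/+ replicate 2, at -2.48 against at most -3.98 in Spink3+/+ pancreas, and Timd4 on Spink3-/- replicate 2, at -1.16 against at most -3.77. In each case the other array of the genotype was not above background, so these are values of single arrays with no test. How many of all untested genes share this pattern was not counted. Mutant arrays outnumber Spink3+/+ arrays, so a dim gene can meet it more easily, and the count is no result about the listed genes. The array with 3 of the 5 genes, Spink3-/-XKI/+ replicate 1, is also the one with the highest share of spots well above background (50.8%), and the part of that share was not tested.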

How the results depend on the processing

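No listed gene was called in any comparison under any of the alternatives, and the lowest adjusted p was 0.125 (Lgals3, Spink3-/-XKI/+ minus Spink3+/+). The medians of Spink3-/- minus Spink3+/+, Spink3-/-XKI/+ minus Spink3+/+ and Spink3-/- minus Spink3-/-XKI/+ kept their sign under every alternative run. With single arrays left out they ran from 0.20 to 0.51, from 0.49 to 0.84 and from -0.45 to -0.18. The slide row as a block moved the second to 0.93, against a spread of 0.284 between arrays of a genotype. With normexp they were 0.21, 0.48 and -0.28. The counts over genes bright on all 6 arrays, and the counts of arrays without overlap under each setting, were added after the data had been seen, and the latter stayed within 1.5 times of 19, 24 and 16. With 1 array left in a genotype non-overlap is easier for every gene, so the share of all genes grew as well: 20 of 31 stood against 39.9% without Spink3-/- replicate 1, 25 of 31 against 43.8% without Spink3-/-XKI/+ replicate 1, and 19 of 31 lower against 44.5% without Spink3-/- replicate 2. Counts over all genes ran from 1 to 7, 0 to 3 and 0 to 4 in place of 5, 1 and 1.

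The labels number the replicates 1 and 2 in each genotype and do not say whether equal numbers mark a pair. Deviations of same-numbered arrays correlated by -0.06, 0.03 and 0.20, which cannot show whether the samples were paired. The main fit used no pairing. A replicate block left the medians at 0.34, 0.64 and -0.33, called 0 of 31 genes and called 1, 1 and 0 of all genes.

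Of 93 single-gene differences, none called, 23 changed sign under an alternative. With normexp these were Cx3cr1 in Spink3-/- minus Spink3+/+ (-0.016) and Cd163 in Spink3-/- minus Spink3-/-XKI/+ (0.013). With the slide row as a block they were Mrc1 (0.31), Lyve1 (0.0061) and Fcgr3 (0.49) in Spink3-/- minus Spink3+/+, Cd163 (0.43) in Spink3-/-XKI/+ minus Spink3+/+, and Marco (0.0062), Cd5l (0.15), Fcgr1 (-0.015), Ly86 (-0.16) and Itgam (0.030) in Spink3-/- minus Spink3-/-XKI/+. With 1 array left out, Spink3-/- minus Spink3+/+ ranged from -0.45 to 0.47 for Cx3cr1, -0.91 to 0.31 for Mrc1, -0.16 to 0.51 for Folr2, -0.42 to 0.0061 for Lyve1, -0.62 to 0.49 for Fcgr3, -0.018 to 0.27 for Tyrobp, -0.38 to 1.23 for Clec7a and -0.75 to 0.065 for Itgb2. Spink3-/-XKI/+ minus Spink3+/+ ranged from -0.36 to 0.25 for C1qa, -0.11 to 0.48 for Cd14, -0.20 to 0.84 for Ly86 and -0.78 to 0.032 for Itgb2. Spink3-/- minus Spink3-/-XKI/+ ranged from -0.59 to 0.34 for Adgre1, -1.13 to 0.43 for Cd163, -0.38 to 0.0062 for Marco, -0.49 to 0.15 for Cd5l, -0.015 to 0.038 for Fcgr1, -1.01 to 0.10 for Fcgr3, -0.45 to 0.59 for Ly86, -0.071 to 0.64 for Ptprc, -0.15 to 0.080 for Itgam and -0.0080 to 0.074 for Itgb2. The cause was not tested. With 2 arrays per genotype, differences near 1 on the log2 scale are mostly below what the fit can call.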
